A study of Mus musculus with 2 samples.

Results

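Glycosaminoglycan synthesis and sulphation enzymes were examined in lung fibroblasts of mice 14 days after an intratracheal dose of bleomycin, a DNA-damaging drug used to produce lung fibrosis, or of saline. The group holds 42 genes, taken by symbol from the 16040 genes of the deposited count table, and all 42 were found there. It spans the enzymes that start, extend, sulphate and trim heparan sulphate and chondroitin or dermatan sulphate chains, and those that make their precursors. The data are 2 libraries of serial analysis of gene expression, in which each transcript is counted by a short tag close to its 3′ end, 1 from bleomycin-treated and 1 from saline-treated Col1a2-EGFP mice, each from the fibroblasts of 3 mice. In this strain the promoter of Col1a2, a type 1 collagen gene, drives enhanced green fluorescent protein, and the cells of both groups were sorted as green cells without lineage markers. Collagenase, dispase and deoxyribonuclease had been used to free them from the lung. The bleomycin library held 1099840 counts and the saline library 1080798.

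Glycosaminoglycans are long sugar chains carried by proteoglycans at the cell surface and in the matrix. A short linker is built on a serine of the core protein, a polymerase complex then extends it as heparan sulphate or as chondroitin sulphate, and sulphotransferases and epimerases pattern the chain in the Golgi. The sulphation pattern determines which growth factors, morphogens and matrix proteins the chain binds, and lung fibroblasts make both kinds of chain.

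In the bleomycin library, the heparan sulphate polymerase genes Ext1 and Ext2, the heparan sulphotransferase genes Hs2st1 and Hs6st1, the chondroitin chain genes Csgalnact1, Chsy1, Chsy3 and Chpf2, and the chondroitin sulphotransferase gene Chst11 were higher, between 2.22-fold and 8.80-fold. Xylt2, which starts the linker, and Sulf2, which removes sulphate from finished heparan sulphate chains, were 2.45-fold and 2.37-fold lower. Of the 42 genes, 34 had at least 10 counts over both libraries and were tested. Of these, 9 were called higher, beside 8.11% of all 9369 tested genes, and 2 were called lower, beside 8.59%. This makes 26.5% of tested enzymes higher and 5.88% lower. The members were chosen with earlier results of these data known, so these shares are not a test for an excess. Calls rest on a two-sided exact binomial test of the counts, with Benjamini-Hochberg adjustment over all tested genes and a threshold of 0.05, and on a ratio of 2 or more in either direction. By the ratio alone, 11 enzymes were 2-fold or more higher, beside 13.2% of all tested genes, and 4 were 2-fold or more lower, beside 14.2%. The median log2 ratio of the tested enzymes was 0.45, and that of all tested genes was 0.02.

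With 1 library in each group there is no replicate check of any difference, and the test compares the libraries, not the conditions. If preparations are assumed to vary with a coefficient of variation of 0.2, only Chst11, Chsy3, Ext2 and Hs2st1 remained called, and at 0.4 no enzyme did. Ranges in brackets below are exact 95% intervals of the ratio, which cover counting error only.

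**Figure D1:**
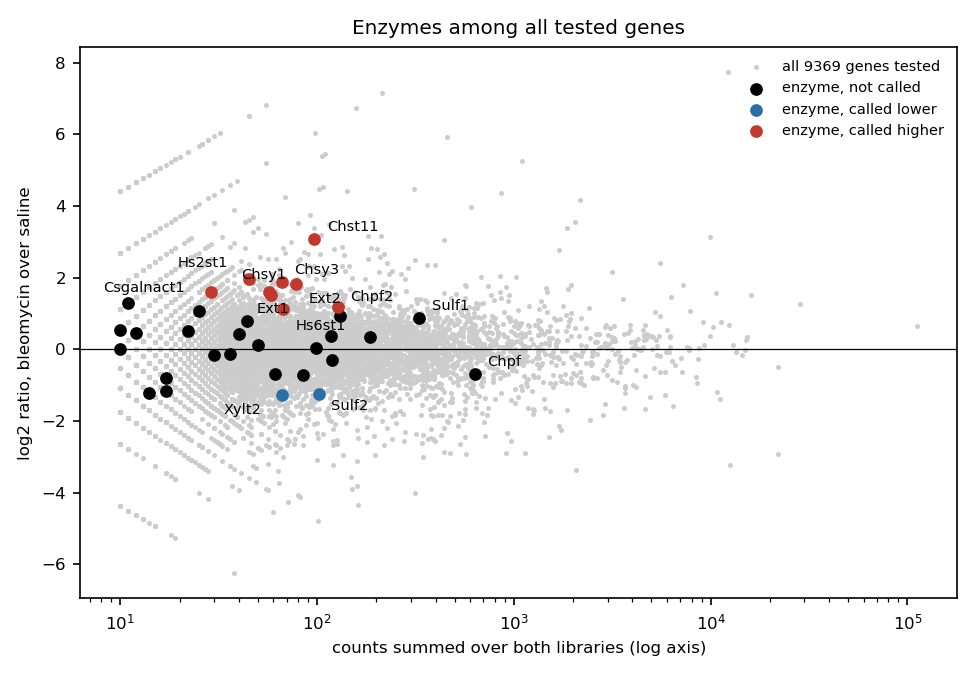
Log2 ratio of the bleomycin over the saline library (vertical) against the counts summed over both libraries (horizontal, log axis), for all 9369 tested genes in grey and the 34 tested enzymes in colour. The 9 enzymes called higher lie at sums between 29 and 127 counts, and the 2 most abundant enzymes, Chpf and Sulf1, are not among them.

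The calls were also counted by depth, with the limit given above on how the members were chosen. Among enzymes with a sum of 50 to 199 counts, 7 of 17 were called higher, beside 8.55% of all genes in that range. Among those with 10 to 49 counts, 2 of 15 were called higher, beside 7.94%. The 2 enzymes with 200 or more counts, Chpf and Sulf1, passed the p threshold but not the 2-fold ratio and were not called, beside 7.72% called higher in that range.

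What was counted for an enzyme is a tag, so the sites that can give one were read from the transcripts. The kit named in the labels is known to cut complementary DNA with NlaIII, which recognises CATG, and to read the tag from the last such site before the poly(A) tail. For 35 of the 42 enzymes, the last CATG of the GENCODE M21 transcript matched to the deposited RefSeq record was located. Ndst1, Ext1, Chsy3, Extl3, Csgalnact1, Xylt1 and Sulf1 are named only. The sites of the called enzymes are shown because the counts below rest on them, with the cutting site in capitals and the next 20 bases in lower case, 5′ to 3′ on the transcript.
Xylt2: CATGaagtttccctactggaggag
Ext2: CATGagcccagatccacagcagag
Hs2st1: CATGgcccttacatcctgagaaca
Hs6st1: CATGcaaacacaacaaactaataa
Sulf2: CATGcggaggcggaggcttaaata
Chsy1: CATGtgttttggggacaaaggtga
Chpf2: CATGgctctgtttgaacaggaaca
Chst11: CATGctcagtaagcatatggacat
On build GRCm38 these lie at chr11:94663972-94663995 (Xylt2, minus strand), chr2:93695719-93695742 (Ext2, minus), chr3:144429890-144429913 (Hs2st1, minus) and chr1:36106126-36106149 (Hs6st1, plus). The others lie at chr2:166073231-166073254 (Sulf2, minus), chr7:66173569-66173592 (Chsy1, plus), chr5:24592325-24592348 (Chpf2, plus) and chr10:83195660-83195683 (Chst11, plus). The annotation places 7 of these 8 sites in a 3′ untranslated region and that of Chpf2 in a coding exon. Whether the authors assigned tags to these sites, or used strand, was not given in the labels.

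Most of these sites name a single gene. Of 33 sites with a full window of 24 bases, 31 were found in the transcripts of no other gene on the same strand. The exceptions were B4galt7, whose window occurs in transcripts of 388 other genes, and Uxs1, whose window occurs in 1 other gene. The last CATG of Chst3 lies 6 bases from the end of its transcript and that of Ugdh 17 bases from it, so a tag from either would run into the poly(A) tail. Low counts of B4galt7, Uxs1 and Chst3 are given with this limit. The windows of Hs6st1 and Chpf2 also lie opposite an annotated transcript, that of Gm37335 for Hs6st1 and that of Smarcd3, which had 3 bleomycin and 6 saline counts, for Chpf2.

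Of the 3 linker enzymes tested, Xylt2 was called lower and none was called higher, beside 8.59% and 8.11% of all tested genes. Xylt2, a xylosyltransferase that places the first sugar of the linker on the core protein, had 19 counts in the bleomycin library and 47 in the saline library. It was 2.45-fold lower (1.41 to 4.41, exact binomial adjusted p = 0.00448). Xylt1, the other xylosyltransferase, had 1 count in each library, so Xylt2 gave nearly all xylosyltransferase counts in both. B3gat3, which adds the closing glucuronic acid, had 53 bleomycin and 66 saline counts, a ratio of 0.812 (0.555 to 1.18). The galactosyltransferases B3galt6, with 7 bleomycin and 5 saline counts, and B4galt7, with 6 bleomycin counts and 1 saline count, were too low to compare closely. In CPM, which divides counts by the library's scaled size, the summed level of the 5 linker genes was 79.3 CPM in the bleomycin library (exact Poisson interval 63.4 to 98.0) and 109 CPM in the saline library (90.7 to 131).

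**Figure D2:**
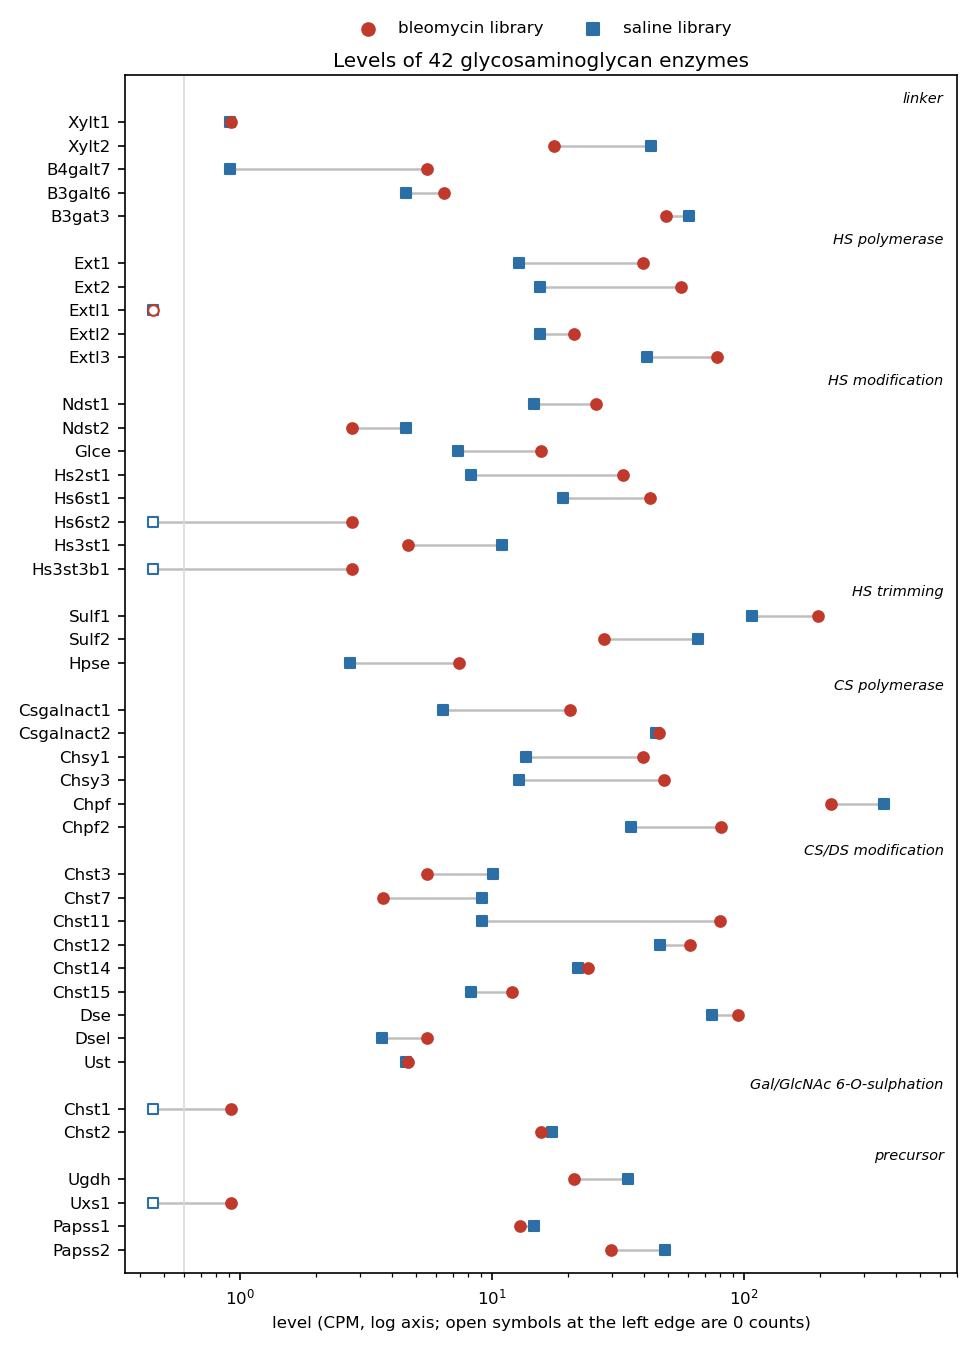
Level of each of the 42 enzymes in CPM (log axis) in the bleomycin library (circles) and the saline library (squares), grouped by role, where HS is heparan sulphate, CS chondroitin sulphate and DS dermatan sulphate. Open symbols stand for 0 counts. Chst11 has the longest line among the 34 tested enzymes, between 80.2 CPM in the bleomycin and 9.12 CPM in the saline library.

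Genes of heparan sulphate polymerisation were the group in which all 4 tested members had ratios above 1, beside 50.4% of all tested genes. Of the 4, 2 were called higher, beside 8.11% of all tested genes. Ext1 and Ext2 encode the partners of the copolymerase that adds glucuronic acid and N-acetylglucosamine in turn. Ext1 had 43 bleomycin and 14 saline counts and was 3.11-fold higher (1.67 to 6.15, exact binomial adjusted p = 0.000707). Ext2 had 61 bleomycin and 17 saline counts and was 3.63-fold higher (2.09 to 6.63, exact binomial adjusted p = 3.8e-06). The split between the partners had overlapping intervals, with Ext1 giving 41.3% of their joint counts in the bleomycin library (31.8 to 51.4%) and 45.2% in the saline library (27.3 to 64.0%). Extl3, which adds the first N-acetylglucosamine and so commits a linker to heparan sulphate, had 85 bleomycin and 45 saline counts. Its ratio of 1.91 (1.32 to 2.81, exact binomial adjusted p = 0.00259) stayed under the required 2-fold. Extl2, a related transferase that can act on the linker, had 23 bleomycin and 17 saline counts, a ratio of 1.37 (0.700 to 2.73). Extl1 was at 0 in both libraries, which allows up to 2.77 CPM in the bleomycin and 2.74 CPM in the saline library. The 5 genes summed to 196 CPM in the bleomycin library (170 to 224) and 84.8 CPM in the saline library (68.5 to 104).

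Both a 2-O- and a 6-O-sulphotransferase that act on heparan sulphate inside the Golgi were higher. They were 2 of 5 tested genes of this group, beside 8.11% of all tested genes. Hs2st1, the single 2-O-sulphotransferase of uronic acid in heparan sulphate, had 36 bleomycin and 9 saline counts and was 4.05-fold higher (1.91 to 9.55, exact binomial adjusted p = 0.000305). Hs6st1, a 6-O-sulphotransferase of glucosamine, had 46 bleomycin and 21 saline counts and was 2.22-fold higher (1.30 to 3.91, exact binomial adjusted p = 0.0103). Ndst1, which removes acetyl groups from glucosamine and sulphates the nitrogen, had 28 bleomycin and 16 saline counts, a ratio of 1.77 (0.925 to 3.50). Glce, the epimerase that turns glucuronic into iduronic acid, had 17 bleomycin and 8 saline counts, a ratio of 2.15 (0.879 to 5.75). Neither of these passed the test, and both intervals hold 1. Hs3st1, a 3-O-sulphotransferase, had 5 bleomycin and 12 saline counts, a ratio of 0.421 (0.116 to 1.28). Ndst2 had 3 bleomycin and 5 saline counts, while Hs6st2 and Hs3st3b1 each had 3 bleomycin counts and none in the saline library. The summed level of the 8 genes was 130 CPM in the bleomycin library (109 to 153) and 64.8 CPM in the saline library (50.6 to 81.7).

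The extracellular sulphatases Sulf1 and Sulf2, which both clip 6-O-sulphate from heparan sulphate, had ratios on opposite sides of 1. Sulf1, the second most abundant enzyme of the 42 in both libraries, had 213 bleomycin and 118 saline counts. Its ratio of 1.83 (1.45 to 2.31, exact binomial adjusted p = 1.38e-06) passed the p threshold but not the required 2-fold. Sulf2 had 30 bleomycin and 72 saline counts and was 2.37-fold lower (1.53 to 3.76, exact binomial adjusted p = 0.000327). Sulf1 therefore gave 87.7% of the sulphatase counts in the bleomycin library (82.8 to 91.5%) and 62.1% in the saline library (54.8 to 69.0%), shares that do not depend on scaling between libraries. Their joint count was 243 in the bleomycin and 190 in the saline library. Hpse, heparanase, which cuts heparan sulphate chains, had 8 bleomycin and 3 saline counts.

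Markers of other lung cells differed between the sorted samples, and not all were lower in the bleomycin library. The 14 endothelial markers summed to 35.1 CPM in the bleomycin library and 567 CPM in the saline library, with Robo4, Kdr and Emcn at 0 in the bleomycin library, Emcn at 0 in the saline library, and Pecam1 at 3 bleomycin and 53 saline counts. The alveolar type 2 markers, 7 of 8 found in the table, summed to 9.22 CPM in the bleomycin and 150 CPM in the saline library, with Sftpc giving 70.0% of the bleomycin and 93.3% of the saline counts. Sftpb, Sftpd, Lamp3, Slc34a2 and Napsa were at 0 in the bleomycin library, and Sftpd and Lamp3 in the saline library. Leukocyte markers, 7 of 11 found, were at 4.61 CPM in the bleomycin and 6.38 CPM in the saline library, with Ptprc at 1 bleomycin count and 0 saline counts, and Epcam, an epithelial marker, had 0 bleomycin counts and 1 saline count. Alveolar type 1 markers summed to 9.22 CPM in the bleomycin and 34.7 CPM in the saline library, and airway markers to 16.6 CPM in the bleomycin and 46.5 CPM in the saline library. Pericyte markers summed to 139 CPM in the bleomycin and 218 CPM in the saline library. Of these, 2 of 7 tested were called lower, beside 8.59% of all tested genes. Smooth muscle markers summed to 897 CPM in the bleomycin and 869 CPM in the saline library. Of 7 tested, 1 was called higher and 4 lower, beside 8.11% and 8.59% of all tested genes. The marker called higher was Des, at 571 bleomycin and 169 saline counts. The sum of the smooth muscle markers was thus near even while their median log2 ratio was -1.14. Mesothelial markers were at 8.30 CPM in the bleomycin and 8.21 CPM in the saline library.

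The 8 fibroblast markers were all tested, with 2 called higher and 2 lower, beside 8.11% and 8.59% of all tested genes. Their median log2 ratio was 0.07. Col1a1, at 7925 bleomycin and 2714 saline counts, and Col1a2, at 5613 bleomycin and 1636 saline counts, were higher. Dcn, at 1606 bleomycin and 4861 saline counts, and Tcf21, at 93 bleomycin and 338 saline counts, were lower, and Pdgfra had 323 bleomycin and 509 saline counts. Des, Dcn and Tcf21 were singled out here after their values were seen. The part of other cell types in the levels of the enzymes was not tested, and in such pooled samples fewer cells of a type and less RNA per cell cannot be told apart.

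**Figure D3:**
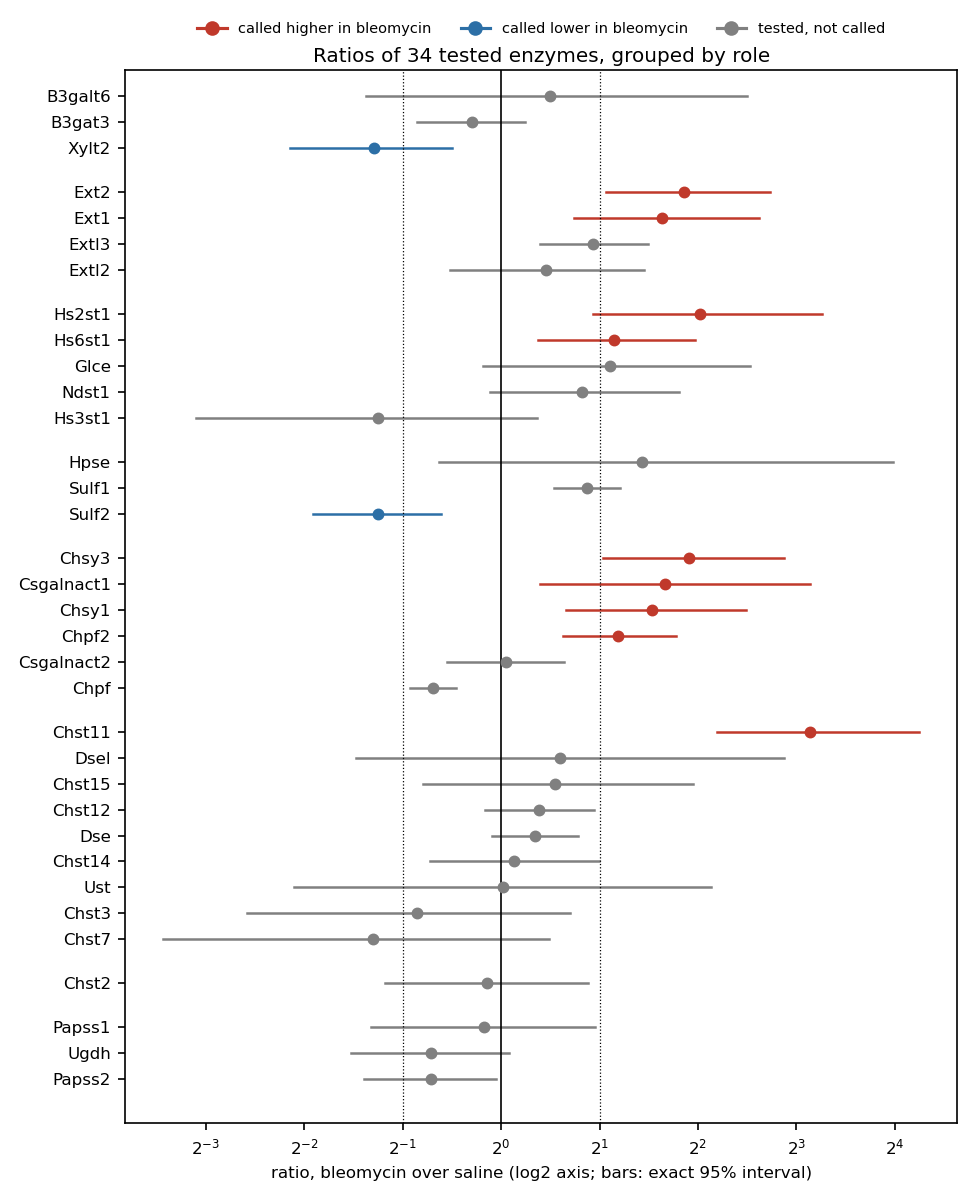
Ratio of the bleomycin over the saline library (log2 axis) for the 34 tested enzymes, grouped by role from linker enzymes at the top to precursor enzymes at the bottom, with exact 95% intervals. Dotted lines mark the 2-fold limits. The 9 enzymes called higher fall in 4 of the role groups. The 3 tested precursor enzymes lie left of 1, beside 49.6% of all tested genes.

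Among the genes that start and extend chondroitin sulphate, 4 of 6 were called higher, beside 8.11% of all tested genes. The most abundant of the 6 was lower without reaching 2-fold. Chsy1 and Chsy3 encode chondroitin synthases, each with both transferase activities needed to extend the chain. Chsy1 had 43 bleomycin and 15 saline counts and was 2.90-fold higher (1.58 to 5.62, exact binomial adjusted p = 0.00133). Chsy3 had 52 bleomycin and 14 saline counts and was 3.76-fold higher (2.05 to 7.34, exact binomial adjusted p = 1.71e-05). Csgalnact1, which adds the first N-acetylgalactosamine and so commits the linker to chondroitin sulphate, had 22 bleomycin and 7 saline counts and was 3.18-fold higher (1.31 to 8.81, exact binomial adjusted p = 0.0215). Csgalnact2, its close relative, was even at 50 bleomycin and 49 saline counts, a ratio of 1.03 (0.682 to 1.56).

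Chpf and Chpf2 encode partners of the chondroitin synthases. Chpf2 had 88 bleomycin and 39 saline counts and was 2.28-fold higher (1.55 to 3.42, exact binomial adjusted p = 0.0001). Chpf, the most abundant of the 42 enzymes in both libraries, had 241 bleomycin and 394 saline counts. It was 1.62-fold lower (1.37 to 1.91, exact binomial adjusted p = 4.4e-08), past the p threshold but short of 2-fold. Chpf gave 73.3% of the pair's counts in the bleomycin library (68.1 to 78.0%) and 91.0% in the saline library (87.9 to 93.5%). The summed level of the 6 genes was 457 CPM in the bleomycin library (418 to 500) and 472 CPM in the saline library (433 to 515). Without Chpf, the other 5 summed to 235 CPM in the bleomycin library (207 to 266) and 113 CPM in the saline library (94.1 to 135).

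**Figure D4:**
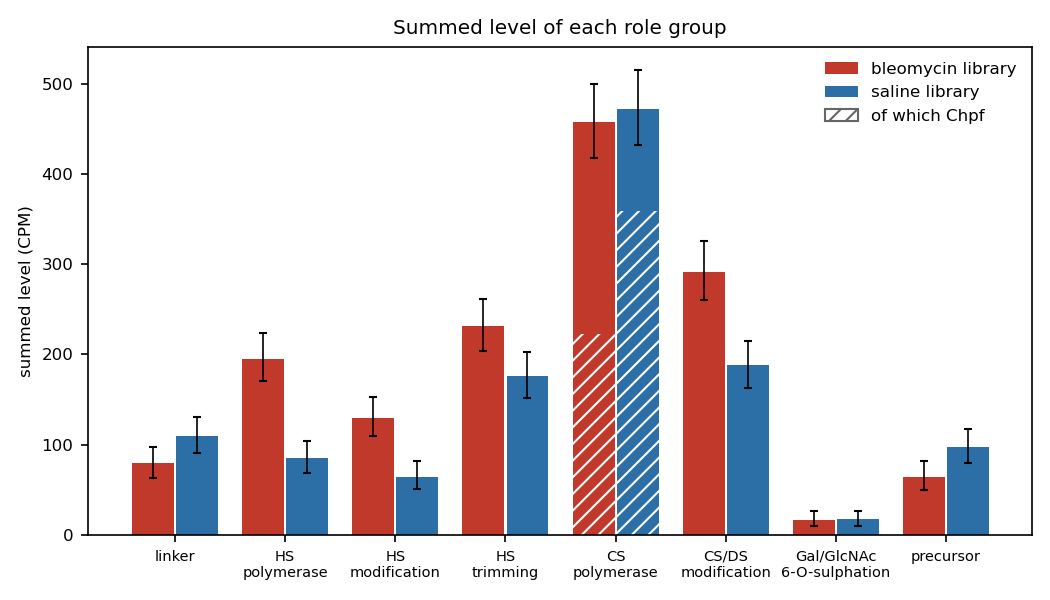
Summed level in CPM of each role group in the bleomycin library (left bar of each pair) and the saline library (right bar), with exact Poisson 95% intervals, and hatching for the part held by Chpf. Heparan sulphate polymerase genes summed to 196 CPM in the bleomycin and 84.8 CPM in the saline library, while the intervals of the chondroitin polymerase sums overlap, with Chpf lower and the other 5 together higher.

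Chst11 had the largest ratio of the 34 tested enzymes. It encodes a chondroitin 4-O-sulphotransferase and had 87 bleomycin and 10 saline counts, which makes it 8.80-fold higher (4.56 to 19.0, exact binomial adjusted p = 2.03e-15). Among the 42 enzymes it had rank 5 in the bleomycin library and rank 25, level with Chst7, in the saline library. Chst12, which sulphates the same position, had 66 bleomycin and 51 saline counts, a ratio of 1.31 (0.894 to 1.92). Chst11 thus gave 56.9% of the pair's counts in the bleomycin library (48.6 to 64.8%) and 16.4% in the saline library (8.15 to 28.1%). Chst14, the 4-O-sulphotransferase of dermatan sulphate, had 26 bleomycin and 24 saline counts, a ratio of 1.10 (0.605 to 1.99).

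The chondroitin 6-O-sulphotransferase genes Chst3 and Chst7 had low counts and ratios below 1, with intervals that hold 1. The limit on the Chst3 tag site given above applies here. Chst3 had 6 bleomycin and 11 saline counts, and Chst7 had 4 bleomycin and 10 saline counts, with ratios of 0.552 (0.168 to 1.63) and 0.405 (0.0926 to 1.40). Neither passed the test at these counts. Chst15, which adds a second sulphate to 4-O-sulphated units, had 13 bleomycin and 9 saline counts, a ratio of 1.46 (0.578 to 3.87), and Ust, the uronyl 2-O-sulphotransferase, had 5 in each. Dse, the epimerase that converts chondroitin into dermatan sulphate, was the third most abundant enzyme in both libraries, with 103 bleomycin and 82 saline counts and a ratio of 1.27 (0.941 to 1.72). Its relative Dsel had 6 bleomycin and 4 saline counts. The 9 enzymes that modify chondroitin and dermatan sulphate were all tested. At the threshold 1 was higher and none was lower, beside 8.11% and 8.59% of all tested genes. At an unadjusted p under 0.05, again 1 was higher and none was lower, and the share of all tested genes was not computed there. The 9 enzymes summed to 291 CPM in the bleomycin library (260.2 to 325) and 188 CPM in the saline library (163 to 215).

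**Figure D5:**
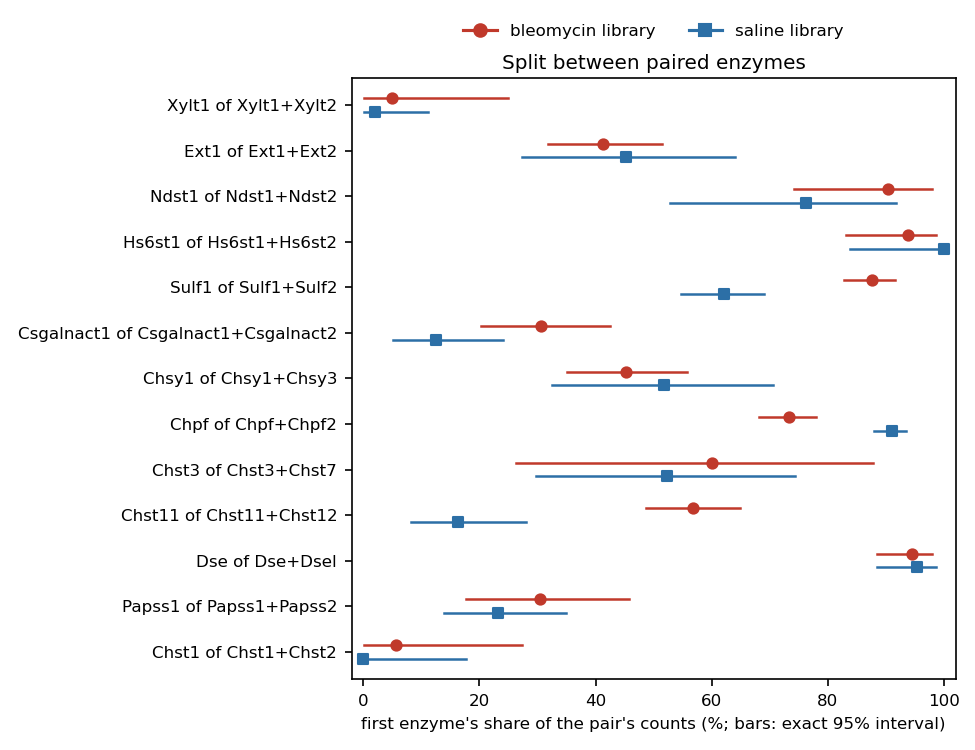
Share of a pair's counts held by the first enzyme, in percent, in the bleomycin library (circles, upper) and the saline library (squares, lower), with exact Clopper-Pearson 95% intervals. Of the 13 pairs, the intervals of the libraries stay apart for Sulf1 with Sulf2, Chpf with Chpf2, and Chst11 with Chst12. The intervals cover counting error only, and no such share was computed for pairs of other genes.

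The start regions of Chst11 and Chst12 are shown because these genes share an activity and differ in ratio. RefSeq places them at chr10:82985247-82985546 and chr5:140505359-140505658 of GRCm38.p6, both on the plus strand, as windows of 300 bases that end shortly after the start of the gene. Capitals mark matches to the motifs searched on both strands, which were GGGCGG for the GC box, CCAAT for the CCAAT box, TATAAA for the TATA box, TGANTCA for AP-1 and GGAATG for TEAD.
Chst11: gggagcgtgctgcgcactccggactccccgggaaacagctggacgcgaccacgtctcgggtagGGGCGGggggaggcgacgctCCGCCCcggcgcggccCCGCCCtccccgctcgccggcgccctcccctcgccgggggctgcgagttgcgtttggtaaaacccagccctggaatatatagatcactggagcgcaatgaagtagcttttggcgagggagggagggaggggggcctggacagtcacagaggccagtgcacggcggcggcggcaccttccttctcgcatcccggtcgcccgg
Chst12: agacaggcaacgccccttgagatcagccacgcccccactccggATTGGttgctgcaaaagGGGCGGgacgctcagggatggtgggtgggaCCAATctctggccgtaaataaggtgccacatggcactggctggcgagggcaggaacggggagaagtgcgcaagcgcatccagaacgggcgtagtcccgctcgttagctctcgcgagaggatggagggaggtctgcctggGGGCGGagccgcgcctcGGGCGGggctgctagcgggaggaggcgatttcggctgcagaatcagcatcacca
Each window holds 3 GC boxes, and that of Chst12 also holds 2 CCAAT boxes. A GC box was present in 26 of 35 enzyme promoters, or 74.3%, in 67.9% of the promoters of 6564 tested genes that matched by symbol and in 35.7% of all 32851 promoters of that length. The CCAAT box was present in 12 of 35 enzyme promoters, or 34.3%, in 38.5% of those of tested genes and in 37.4% of all promoters. The TEAD motif was in 7, or 20.0%, in 12.1% of those of tested genes and in 14.7% of all. The TATA box was in 2, or 5.71%, in 6.83% of those of tested genes and in 13.6% of all. The AP-1 motif was in 1, or 2.86%, in 4.72% of those of tested genes and in 7.81% of all. None of these 4 lies in the Chst11 window, which says only that these letters are not in it.

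Enzymes that supply the precursors were not called, and all 3 tested had ratios below 1, beside 49.6% of all tested genes. Ugdh, which makes the glucuronic acid donor, had 23 bleomycin and 38 saline counts, a ratio of 0.612 (0.348 to 1.05). The limit on the Ugdh tag site given above applies to this ratio. Papss2, which makes the universal sulphate donor, had 32 bleomycin and 53 saline counts, a ratio of 0.611 (0.381 to 0.965) whose exact binomial adjusted p of 0.0914 did not pass. Papss1, with the same activity, had 14 bleomycin and 16 saline counts, a ratio of 0.885 (0.40 to 1.93). Uxs1, which makes the xylose donor, had 1 bleomycin count and 0 saline counts. The 4 genes summed to 64.6 CPM in the bleomycin library (50.3 to 81.6) and 97.6 CPM in the saline library (80.0 to 118). Chst2, which sulphates N-acetylglucosamine of other glycans, was near even at 17 bleomycin and 19 saline counts, a ratio of 0.905 (0.442 to 1.84), and Chst1, which sulphates galactose of keratan sulphate, had 1 bleomycin count and 0 saline counts.

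The levels of the 42 genes together were 1467 CPM in the bleomycin library (1395 to 1540.5) and 1210.3 CPM in the saline library (1146 to 1277). Chpf alone held 15.2% of those counts in the bleomycin and 29.7% in the saline library. The order at the top was Chpf, Sulf1, Dse in both libraries, with Chpf2, Chst11 and Extl3 next at 88, 87 and 85 counts in the bleomycin library, values that do not differ beyond counting error. In the saline library Sulf2 and B3gat3 came next, at 72 and 66 counts, which are also within counting error of each other. Since a transcript gives about 1 tag whatever its length, these levels were not divided by length.

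Other genes of the pathway moved in both directions. Of 13 tested genes for sugar and sulphate supply, transport and linker regulation, 2 were higher, beside 8.11% of all tested genes. Lower were 2, beside 8.59%, and the median log2 ratio was 0.18. Gnpnat1, an acetyltransferase of the route to UDP-N-acetylglucosamine, was 2.70-fold higher at 40 bleomycin and 15 saline counts. Uap1, the last enzyme of the same route, was 2.05-fold lower at 28 bleomycin and 58 saline counts, and Gfpt2, a form of its first enzyme, was 3.06-fold lower at 22 bleomycin and 68 saline counts. The other form, Gfpt1, singled out once values were known, was 2.53-fold higher at 25 bleomycin and 10 saline counts. That call was lost with total-count scaling, with DESeq2 size factors and with no minimum count. Of the called supply genes, only Gfpt2 remained called with Bonferroni adjustment and at an assumed coefficient of variation of 0.2. Of 12 further sulphotransferases and heparanase 2, 7 were found and only Hs3st3a1, a 3-O-sulphotransferase, was tested. It was 3.96-fold lower at 4 bleomycin and 16 saline counts. The Hs3st3a1 call was lost when no minimum count was set, with Bonferroni adjustment and at an assumed coefficient of variation of 0.2. Among proteoglycan core proteins, 3 of 17 tested were higher and 2 lower, beside 8.11% and 8.59% of all tested genes. Their median log2 ratio was -0.28. Sdc1, a syndecan, was 22.9-fold higher (10.3 to 63.6) at 136 bleomycin and 6 saline counts. Sdc3, another syndecan, was 2.41-fold higher at 88 bleomycin and 37 saline counts. Gpc4, a glypican also singled out afterwards, was 5.06-fold higher (2.07 to 14.9) at 30 bleomycin and 6 saline counts. Dcn and Tgfbr3 were 2.99-fold and 2.34-fold lower. The Gpc4 call was lost with Bonferroni adjustment, and those of Sdc3 and Tgfbr3 at an assumed coefficient of variation of 0.2.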

How the data were processed

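Tag counts per gene came from 1 bleomycin and 1 saline SOLiD SAGE library. The authors deposited whole-number counts. BWA 0.6.2 and the build mm9 appear in the submitters' processing notes without a stated step. The rule by which tags were assigned, and any scaling of the counts, are not given in the sources used here. After 1 blank line was left out, 16040 genes remained. Library sizes were scaled by TMM with edgeR 4.0.16 (R 4.3.3), giving factors of 0.986 for the bleomycin and 1.01 for the saline library. Genes with at least 10 counts over both libraries (9369) entered an exact binomial test, two-sided, of the bleomycin count given the sum, with Benjamini-Hochberg adjustment. Genes with an adjusted p under 0.05 were called where the ratio was also 2 or more in either direction. The quasi-likelihood test needs replicates and could not be fitted. Log2 ratios have 0.5 added to each count. A floor of 3 counts sets the limit for a count of 0. No molecular identifiers are named, so amplified copies of a tag cannot be told apart from separate transcripts. The intervals treat each count as independent and cover counting error only. The test was tried on simulated counts with counting error only, which cannot show how it behaves when preparations vary. Alternatives were DESeq2 1.42.0 size factors, total counts, other minimums, ratios and adjustments, and edgeR's exact test with an assumed coefficient of variation. The members and lists were chosen with earlier results of these data known. Every enzyme is accounted for. Of each other pathway list, up to 2 called genes per direction with at least 50 counts were named by largest ratio, or the most abundant where none was called. Promoter windows came from RefSeq and tag sites from GENCODE M21, both on GRCm38, matched by symbol or transcript record. Python 3.11.15, scipy 1.17.1, pandas 2.3.3 and matplotlib 3.10.9 were used.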

Additional observations from a re-analysis of the deposited data

How the results depend on the processing

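Of the 34 tested enzymes, 33 kept their direction and their side of the threshold with total counts and with DESeq2 size factors. The exception with total counts was Ust, at 5 counts in each library, whose log2 ratio was -0.025 with total counts and 0.02 with TMM, and with DESeq2 size factors it was exactly even. Adding 5 to each count turned no direction. The 9 enzymes higher and 2 lower were also called under both scalings and with no minimum count. Of all tested genes, 7.28% were higher and 9.95% lower with total counts, and 7.44% and 8.79% with DESeq2 size factors. With no minimum count these shares were 5.38% and 5.56%. A minimum of 50 counts left 7 and 2 of 19 tested enzymes, beside 8.31% and 10.2% of 4823 tested genes. Bonferroni adjustment left 3 higher and 0 lower, beside 3.07% and 3.58% of all tested genes. A 3-fold minimum left 6 and 0, beside 4.91% and 4.89%, and a 1.5-fold minimum gave 11 and 3, beside 11.8% and 12.4%. With edgeR's exact test at an assumed coefficient of variation of 0.2, 4 were higher and 0 lower, beside 2.92% and 3.55%. At that value, 8 and 2 had both an unadjusted p under 0.05 and a ratio of 2 or more in that direction. At 0.4, 0 and 0 were called, beside 0.224% and 0.0854% of all tested genes, and 1 and 0 enzymes met both of these conditions. The shares of all tested genes that met both conditions were not computed. Chst11 had an adjusted p of 0.202 in edgeR's exact test at 0.4. These values are assumed, since 1 library per group gives no estimate of the spread. Over all tested genes, 760 higher and 805 lower calls became 401 and 491 with a minimum of 50 counts, 460 and 458 at a 3-fold minimum, 288 and 335 after Bonferroni adjustment, and 274 and 333, then 21 and 8, at assumed values of 0.2 and 0.4. No paired analysis was possible because each group has 1 library. Leaving out a library leaves a group empty. At this depth 8 enzymes could not be tested.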

Other observations

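The lysosomal enzymes that take apart glycosaminoglycan chains mostly had ratios below 1. Of 16 such genes, 13 were tested and 12 had ratios below 1, where 49.6% of all tested genes did, with Idua, the iduronidase, at 1.09 the exception. Their median log2 ratio was -0.51, and they summed to 739 CPM in the bleomycin library and 1084 CPM in the saline library. Called lower were Sgsh, heparan N-sulphatase, at 12 bleomycin and 32 saline counts, and Galns, a sulphatase of chondroitin and keratan sulphate, at 2 bleomycin and 13 saline counts, both named after their values were seen. Their exact binomial adjusted p-values were 0.0166 and 0.0299, and both calls were lost with Bonferroni adjustment and at an assumed coefficient of variation of 0.2. Endothelial markers were lower in the same library, at 35.1 CPM in the bleomycin and 567 CPM in the saline library, and their part in this was not tested.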
